A study of Mus musculus with 4 samples.

Results

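The intermediate filament genes of glia and neurons were followed in mouse lumbar spinal cord 10 days after ligation of a spinal nerve. They were taken by name from the array files: Gfap, Vim, Nes, Synm, Nefl, Nefm, Nefh, Ina, Prph and Des, 10 of 34844 gene names on the array, with 18 of its 55681 non-control probes. All 18 were well above background on all 4 arrays and were tested among 44718 probes. The arrays came from 4 male ICR mice of 8 weeks, an outbred strain. Spinal nerve ligation (SNL), a standard model of neuropathic pain, was done in 2 mice by tying off the L5 nerve with silk thread, and in 2 sham mice that nerve was exposed and left untied. The transverse process of L6 was removed to reach the nerve, saline was perfused before the L4 to L5 cord was taken, and each mouse gave 1 array. The labels do not say which side of the cord was taken.

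Intermediate filaments are rope-like polymers that give a cell tensile strength, and each cell type builds them from its own subunits. Astrocytes use glial fibrillary acidic protein (Gfap) with vimentin (Vim), and add nestin (Nes) and synemin (Synm), which join filaments built by other subunits. Neurons use the light, medium and heavy neurofilament subunits (Nefl, Nefm, Nefh) with alpha-internexin (Ina). Peripherin (Prph) is strong in neurons with peripheral axons, motor neurons among them, and desmin (Des) in muscle fibres and the walls of vessels. Gfap is the usual stain for reactive astrocytes, and neurofilament subunits set the calibre of large axons.

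The results rest on short DNA probes of 60 bases, and subunits of this family share protein sequence. The longest run of identical letters that any of the 18 probes shared with a probe of another member gene, on the same strand, was 7 to 9 bases. Probes were compared only with probes, not with the transcripts of other member genes. These runs therefore do not show whether a probe reads its own gene alone, which was not tested. The 6 probes below are shown because the text turns on them: desmin, which differed most between mice, the motor neuron filament peripherin, medium and heavy neurofilament, and the probes named for a transcript variant of Gfap and of Synm. Capitals mark the longest run shared with a probe of another member gene.
Des: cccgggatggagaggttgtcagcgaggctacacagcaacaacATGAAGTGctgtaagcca
Prph: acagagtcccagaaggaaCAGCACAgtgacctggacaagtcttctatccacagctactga
Nefm: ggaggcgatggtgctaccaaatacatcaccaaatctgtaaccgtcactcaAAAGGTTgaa
Nefh probe 1: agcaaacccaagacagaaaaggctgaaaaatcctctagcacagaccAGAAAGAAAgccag
Gfap probe 3: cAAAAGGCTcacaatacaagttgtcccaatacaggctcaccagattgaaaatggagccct
Synm probe 5: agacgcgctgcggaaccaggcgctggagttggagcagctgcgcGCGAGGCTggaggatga
On mm9, the build of the files, the Des probe lies at chr1:75363404-75363629, a span of 226 bases for 60 letters, so the probe bridges a gap of 166 bases. The Prph probe is at chr15:98889042-98889101, that of Nefm at chr14:68738193-68738252 and Nefh probe 1 at chr11:4839396-4839455. Gfap probe 3 is at chr11:102752726-102752785 and Synm probe 5 at chr7:74903754-74903813. The probes of Nefl and Nefm lie 32495 bases apart on chromosome 14. Where they fall within exons was not analysed here. Probes of a gene are numbered from the brightest.

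A level is the log2 signal of a probe over the 75th percentile of its own array, so 0 is the brightness of that percentile and a difference of 1 is 2-fold. A probe's level is compared between mice. Levels of different probes are not ranked, and where one is subtracted from another within an array, only the change of that difference between mice is read. No filament spot had a saturated pixel. Of all spots, 74.9% to 82.1% were well above background on the 4 arrays. Arrays of a group correlated across probes, which are not replicates, at 0.991 (sham) and 0.987 (SNL), and arrays of different groups at 0.982 to 0.984.

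Before the results, 2 mice need to be named, because markers of tissue next to the cord differed in them. Of 12 skeletal muscle genes, all 12 were highest in SNL mouse 1 and 10 were lowest in SNL mouse 2. Their summed level, in multiples of the 75th percentile signal, was 4.63 and 6.05 in the sham mice and 40.9 and 3.18 in the SNL mice. Of 10 Schwann cell genes, 9 were lowest in sham mouse 2, with sums of 27.7 and 15.2 in the sham pair and 35.2 and 26 in the SNL pair. Of 10 genes of meninges and fibroblasts, 8 were lowest in sham mouse 2, with sums of 35.6 and 25.1 in the sham pair and 39.6 and 28.8 in the SNL pair. Markers of the labelled tissue were present: all 12 astrocyte genes and all 10 oligodendrocyte genes were well above background on each array. Of 12 neuronal genes, 11 were so on the array of sham mouse 1, where the spot of the twelfth, Syt1, was left out as an outlier, and all 12 on the other arrays. Of 10 sensory ganglion genes, 8 were tested, and all 8 were well above background on each array, with sums of 1.97 to 2.46. The other genes, Scn10a and Mrgprd, both defining, were too dim for the test.

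No filament probe passed the test. Of 18 probes, 0 had an adjusted p under 0.05 in limma, which called 0.152% of all probes tested, 0.141% as higher and 0.0112% as lower. The adjusted p-values of the filament probes ran from 0.311 to 0.981. At an unadjusted p under 0.05, 2 of the 18 were higher (11.1%, against 6.22% of all probes) and 0 lower (5.98% of all probes). The changes had a median of 0.10 on the log2 scale, against 0.015 for all probes, and 15 lay above 0 and 3 below. That split depended on the scaling and on 1 mouse. With arrays centred on their medians 9 of 18 lay above 0, with quantile normalization 10, and without SNL mouse 1 there were 11, with a median of 0.014. The SNL mice lay above both sham mice for 7 probes (38.9%, against 23.2% of all probes) and below both for 0 (22.2% of all probes), where 45.4% of all probes lay apart in either direction.

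**Figure D1:**
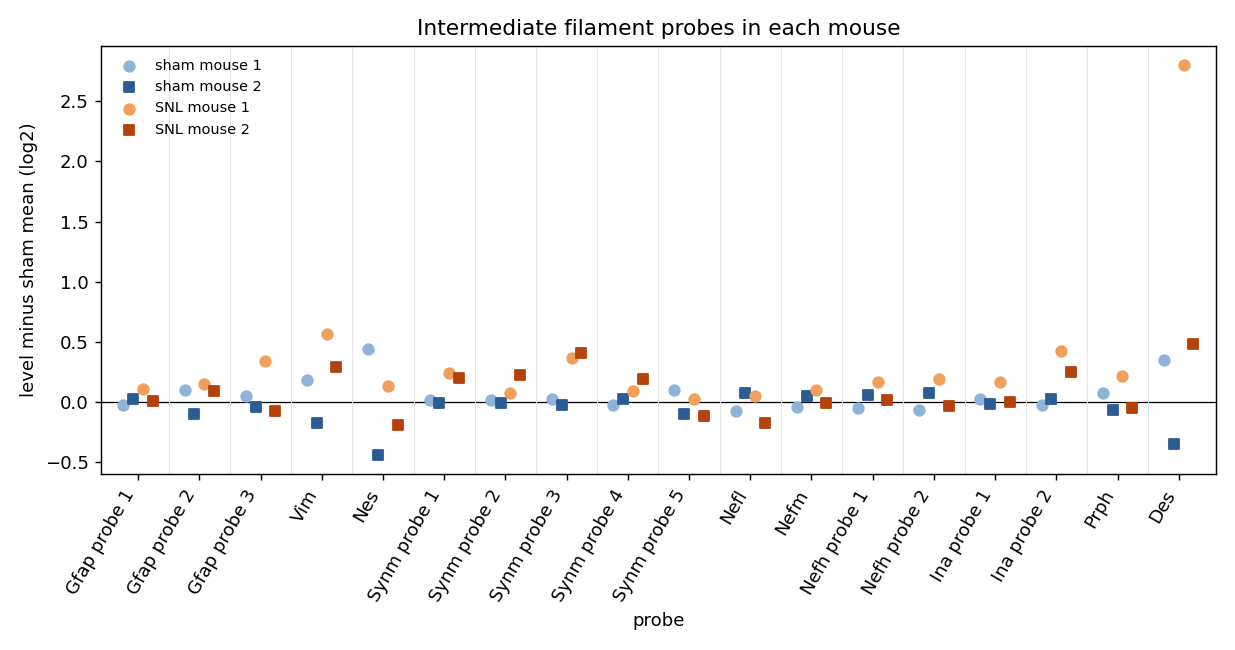
Level of each of the 18 probes in each mouse, minus the mean of the 2 sham mice (y axis, log2), with circles for mouse 1 and squares for mouse 2 of each group. The Des value of SNL mouse 1 stands apart from the others, and without SNL mouse 2 the change of Des was 2.80.

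In the main fit, the error was small enough to bound most of these changes. The 95% interval of the change lay within 2-fold in either direction for 16 of 18 probes, all but those of Nes and Des, and within 1.5-fold for 12. The median SE of the filament probes was 0.12, against 0.14 for all probes. The SE depended on the scaling, and the intervals were counted for the main scaling only. With arrays centred on their medians it rose for Gfap probe 1 from 0.10 to 0.18 and for Nefl from 0.14 to 0.21. For Nes it fell from 0.36 to 0.32 and for Des from 0.90 to 0.78. With 2 mice per group, intervals rest on a spread shared across probes. In whole tissue, fewer cells of a type and less RNA per cell cannot be told apart.

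**Figure D2:**
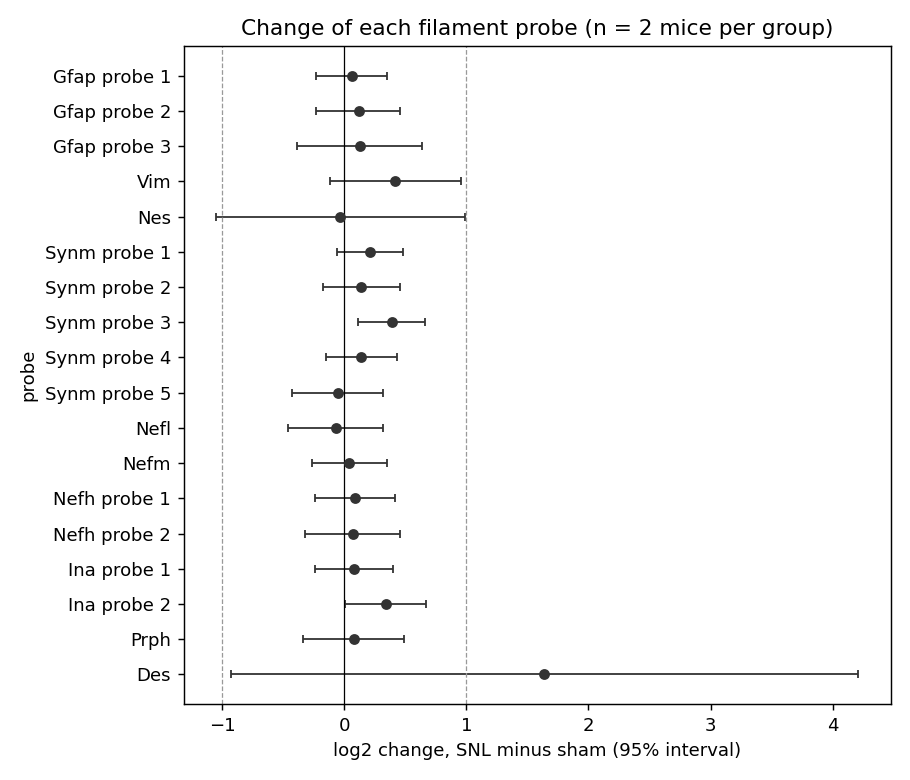
Change of each probe in log2 units, SNL minus sham (points), with its 95% interval from the fit over all probes (bars, n = 2 mice per group), and dashed lines at 2-fold. Only the intervals of Nes and Des reach past 2-fold.

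Gfap, the main astrocyte filament, gave overlapping values in sham and SNL cord by all 3 of its probes. Probe 1 gave 2.08 and 2.13 in the sham mice and 2.21 and 2.11 in the SNL mice. The groups overlapped, and the change was 0.06 ± 0.10 (SE), with an interval of -0.23 to 0.35, or 0.852-fold to 1.28-fold (adjusted p = 0.852). Probe 2, named in the files for transcript variant 2, gave 2.17 and 1.97 in the sham pair and 2.22 and 2.16 in the SNL pair. Its groups overlapped too, as sham mouse 1 lay between the SNL mice, and its change was 0.12 ± 0.12 (adjusted p = 0.745). Probe 3, which like probe 1 is named for variant 1, gave 1.43 and 1.34 in the sham pair and 1.72 and 1.31 in the SNL pair. Here only SNL mouse 1 was high, SNL mouse 2 was the lowest of the 4, and the change was 0.13 ± 0.18 (adjusted p = 0.815). The direction was not settled: probes 1 and 2 were at -0.16 and -0.15 with normexp background correction, and probe 3 was at -0.075 without SNL mouse 1.

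The 2 probes named for variant 1 were set against the probe named for variant 2 within each array, where scaling cancels. Probe 3 minus probe 2 was -0.74 and -0.64 in the sham pair and -0.50 and -0.85 in the SNL pair, a change of 0.013. Probe 1 minus probe 2 was -0.091 and 0.15 in the sham pair and -0.0072 and -0.046 in the SNL pair, a change of -0.056. Both differences overlapped between the groups, so no shift between these probes exceeded the spread between mice. Whether each probe reads 1 variant alone was not tested, so this is not a result about the variants.

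Astrocyte identity genes lay near 0 as Gfap did, and genes of reactive astrocytes lay mostly above it. Of 12 astrocyte genes tested, 0 were higher and 0 lower at an unadjusted p under 0.05 (6.37% and 5.17% of genes by their brightest probe), with a median change of 0.086. The 3 with the smallest p were Aldh1l1, a folate enzyme, at 0.29 ± 0.14, the water channel gene Aqp4 at -0.19 ± 0.095 and the glutamate transporter gene Slc1a3 at 0.18 ± 0.099. Of 16 reactive astrocyte genes, 9 were higher and 0 lower at that p, with a median of 0.90, and 0 passed over all probes. Steap4, not among the 9, was not well above background in sham mouse 2. It met the filter on dim probes (at least 2 of 4 arrays) only with the SNL arrays, where it is high. Its part in the list's median and counts is therefore not support. The 3 with the smallest p were Socs3, a brake on cytokine signalling, at 1.99 ± 0.16, the protease inhibitor gene Serpina3n at 1.23 ± 0.11 and Aspg at 1.32 ± 0.14 (adjusted p = 0.0874, 0.096 and 0.12). Sham mouse 2 was the lowest mouse for 14 of the 16, and without it the median was 0.57, with 8 higher. Leaving out 1 mouse at a time gave 7 to 12 reactive genes higher and 0 lower. These genes are also made by other cells, and the lists were chosen with results of these data known.

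Vimentin had both SNL mice above both sham mice, without passing the test. Its 1 probe gave 2.72 and 2.36 in the sham mice and 3.1 and 2.83 in the SNL mice. SNL mouse 1 was highest and sham mouse 2 lowest, and SNL mouse 2 lay only just above sham mouse 1. The change was 0.42 ± 0.19, or 1.34-fold with an interval of 0.923-fold to 1.95-fold (adjusted p = 0.492). Without sham mouse 2 it was 0.25. Vim minus Gfap (probe 1) was 0.64 and 0.24 in the sham pair and 0.88 and 0.72 in the SNL pair. The change was 0.36, with groups that did not overlap, a difference between probes that was not tested.

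Vimentin is made by many cells besides astrocytes, and markers of several of these moved with it. All 12 microglia and macrophage genes were above 0, with 10 higher at an unadjusted p under 0.05 and a median of 0.75, and SNL mouse 1 was the highest mouse for each of the 12. Their summed level was 39.8 and 40.4 in the sham pair and 69.4 and 59.6 in the SNL pair. C1qc, C1qb and C1qa, chains of a complement protein, had the smallest p of that list, at 1.61 ± 0.12, 1.51 ± 0.12 and 1.28 ± 0.12. Leaving out 1 mouse gave 7 to 11 of the 12 higher. The sums of Schwann cell genes and of meningeal and fibroblast genes were lowest in sham mouse 2, as Vim was. Of 10 endothelial genes, 1 was higher and 1 lower at an unadjusted p under 0.05 (6.37% and 5.17% of genes), with a median of -0.21. The higher one was Ly6c1 at 0.52 ± 0.12, the lower one the angiopoietin receptor gene Tek at -0.64 ± 0.15, and next by p was Cldn5, a tight junction gene, at -0.29 ± 0.13. They summed to 21.7 and 19.6 in the sham pair and 19.9 and 22.9 in the SNL pair. The part of these cells in the Vim value was not tested.

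Nestin, known from neural progenitors and found in vessel walls and reactive glia, varied more between mice of a group than between groups. Its probe gave -0.35 and -1.23 in the sham mice and -0.66 and -0.98 in the SNL mice, so both SNL mice lay between the sham mice. The change was -0.031 ± 0.36, with an interval of 0.482-fold to 1.99-fold (adjusted p = 0.981). Leaving out sham mouse 1 gave 0.41 and leaving out sham mouse 2 gave -0.47. Sham mouse 2, the lowest for Nes, was also lowest for 8 of the 10 meningeal and fibroblast genes and 9 of the 10 Schwann cell genes. Of the meningeal genes 0 were higher and 0 lower at an unadjusted p under 0.05, with a median change of 0.20. That median rested on single mice: it was -0.37 without sham mouse 2, -0.18 without SNL mouse 1 and 0.90 without sham mouse 1. The smallest p there were those of Mgp at 0.78 ± 0.46, Ptgds at 0.25 ± 0.15 and Dcn, which makes decorin, at 0.67 ± 0.50. Of 10 genes of ependyma and progenitors, 0 were higher and 1 lower at an unadjusted p under 0.05, against 6.37% and 5.17% of genes. The lower one was Prom1 at -0.53 ± 0.11, and the list's median was -0.18. The median was 0.0011 without sham mouse 2, in which 8 of the 10 were highest, and 0.071 without SNL mouse 1. Next by p were Sox2, a progenitor transcription factor, at -0.21 ± 0.10 and Foxj1, which drives cilia, at -0.16 ± 0.097. What these markers contributed to the Nes value was not tested.

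Synemin, which links filaments to the cell membrane, had both SNL mice above both sham mice by 4 of its 5 probes, none of them past the threshold. Of all probes, 23.2% lay so. Probes 1 to 4 lie in the same stretch and read the same mice, so they are not independent. With arrays centred on their medians these probes were at 0.11, 0.046, 0.29 and 0.039. Probe 1 gave 1.58 and 1.55 in the sham pair and 1.80 and 1.76 in the SNL pair, a change of 0.21 ± 0.095 (adjusted p = 0.495). The mice of a group agreed closely, with an SD of 0.023 in each. Probe 3 gave 0.29 and 0.24 in the sham pair and 0.63 and 0.67 in the SNL pair, and its change of 0.39 ± 0.096, or 1.31-fold, had the smallest p of all filament probes (unadjusted p = 0.0184, adjusted p = 0.311). Its change was 0.58 with normexp correction, and 0.36 to 0.41 with 1 mouse left out. Both probes lie on chromosome 7, probe 1 at chr7:74877629-74877688 and probe 3 at chr7:74875365-74875424.

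Probes 2 and 4 of Synm, in the same stretch, were at 0.14 ± 0.11 and 0.14 ± 0.10. Probe 2 gave 0.44 and 0.42 in the sham pair and 0.50 and 0.65 in the SNL pair, and probe 4 gave -0.46 and -0.41 in the sham pair and -0.35 and -0.25 in the SNL pair. Probe 2 was at -0.066 with normexp correction, so its direction was not settled. Probe 5, named for transcript variant 3 and placed far from the others, gave -3.04 and -3.24 in the sham pair and -3.12 and -3.26 in the SNL pair. Its groups overlapped, with a change of -0.053 ± 0.13 (adjusted p = 0.9).

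Within an array, probe 5 minus probe 1 of Synm was -4.62 and -4.79 in the sham pair and -4.92 and -5.03 in the SNL pair. The groups did not overlap, and the change was -0.27, a difference between probes that was not tested. The files list all 3 transcript variants of Synm for probe 1 and for probe 5, so neither probe reads 1 variant alone.

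The 3 neurofilament genes gave overlapping values in sham and SNL cord. Nefm, the medium subunit, was printed as 10 spots on each array, and gave 3.43 and 3.52 in the sham pair and 3.57 and 3.46 in the SNL pair. The groups overlapped, and the change was 0.042 ± 0.11, with an interval of 0.833-fold to 1.27-fold (adjusted p = 0.906). The SD between the spots kept on an array was 0.038 to 0.094, with 7 of the 10 kept in SNL mouse 2. The SD between mice was 0.063 in sham and 0.076 in SNL. Nefl, the light subunit that the polymer needs, gave 3.08 and 3.23 in the sham pair and 3.20 and 2.98 in the SNL pair, a change of -0.067 ± 0.14 (adjusted p = 0.877). SNL mouse 2 was lowest and SNL mouse 1 lay between the sham mice.

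Nefh, the heavy subunit with the long side arm, gave 3.53 and 3.64 in the sham pair and 3.75 and 3.60 in the SNL pair by probe 1, a change of 0.09 ± 0.12 (adjusted p = 0.8). Its probe 2 gave 2.89 and 3.03 in the sham pair and 3.15 and 2.92 in the SNL pair, a change of 0.071 ± 0.14. In both, SNL mouse 1 was highest and SNL mouse 2 lay between the sham mice. Within each array, Nefl minus Nefm was -0.35 and -0.29 in the sham pair and -0.37 and -0.48 in the SNL pair. That difference moved by -0.11, and its groups did not overlap. Nefh minus Nefm was 0.097 and 0.13 in the sham pair and 0.18 and 0.14 in the SNL pair, a change of 0.048. Its groups did not overlap either, though SNL mouse 2 (0.14) lay only just above sham mouse 2 (0.13). These differences between subunits were not tested. How often other pairs of probes lie apart was not counted, and 45.4% of single probes did in either direction.

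Alpha-internexin, which joins neurofilaments in central axons, had groups that overlapped by 1 probe and not by the other. Probe 1 gave 3.02 and 2.98 in the sham pair and 3.16 and 3.0 in the SNL pair, with a change of 0.084 ± 0.11 (adjusted p = 0.805). Probe 2, which lies 3′ of it at chr19:47099350-47099409, gave 1.64 and 1.69 in the sham pair and 2.09 and 1.91 in the SNL pair. Its groups did not overlap, and the change was 0.34 ± 0.12, or 1.26-fold (unadjusted p = 0.0477, adjusted p = 0.405). With normexp correction it was 0.52.

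Peripherin gave 2.94 and 2.80 in the sham mice and 3.08 and 2.82 in the SNL mice. SNL mouse 2 lay between the sham mice, and the change was 0.078 ± 0.14, with an interval of 0.792-fold to 1.41-fold (adjusted p = 0.866). Prph minus Nefm within an array was -0.49 and -0.72 in the sham pair and -0.49 and -0.65 in the SNL pair, a change of 0.036. Sensory axons of the roots also hold peripherin, and sham mouse 2, the lowest for Prph, was also lowest for 9 of 10 Schwann cell genes. Of those 10, 2 were higher and 0 lower at an unadjusted p under 0.05, against 6.37% and 5.17% of genes. The median of the 10 was 0.73, or 2.5e-04 without sham mouse 2, 1.85 without sham mouse 1 and 1.26 without SNL mouse 2. The smallest p were those of Cdh19 at 0.78 ± 0.16, Drp2 at 0.65 ± 0.21 and Ncmap at 1.48 ± 0.81. Of 8 sensory ganglion genes tested 0 were higher and 0 lower, with a median of 0.093, and the first by p were Tlx3 at 0.68 ± 0.27, the capsaicin receptor gene Trpv1 at 0.59 ± 0.25 and Avil at 0.23 ± 0.16. The part of the roots in the Prph value was not tested.

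Genes of motor neurons had mostly negative changes in the same arrays. Of 12 motor neuron genes, a list that holds Prph itself, 6 were lower and 0 higher at an unadjusted p under 0.05. The shares of genes were 5.17% and 6.37%, and the list's median was -0.54. In the fit over all probes 2 were called lower, Chodl and Mnx1 (adjusted p = 0.0394 and 0.0429). Mnx1 passed the filter on dim probes only through the sham arrays, where it is high. Neither its call nor its part in the list's counts and median is therefore support. Chodl changed by -3.84 ± 0.13 and lay at 1.18 and 0.97 in the sham pair and -2.73 and -2.79 in the SNL pair. The homeobox gene Mnx1 had a mean of -2.98 in sham, and neither SNL mouse had a signal well above background. Set against a bound for the SNL mice, it was 15.6-fold lower. That bound takes, on each SNL array, the higher of the probe's own level and the lowest level of any probe well above background. It is not a detection limit of this probe, and it leaves out the spread between the sham mice (-2.80 and -3.16). Next by p was Uts2b, a urotensin gene, at -2.99 ± 0.25 (adjusted p = 0.0888). With any 1 mouse left out no probe on the array was called, so both calls were lost, and 5 to 7 of the 12 were lower at an unadjusted p under 0.05.

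Genes known from injured neurons had mostly positive changes in the same arrays. Of 12 axon injury genes, 9 were higher and 0 lower at an unadjusted p under 0.05 (6.37% and 5.17% of genes), with a median of 0.98. Sprr1a, among the 9, was not well above background in sham mouse 1. It met the filter on dim probes only with the SNL arrays, where it is high, so its place in these counts and the median is not support. In the fit over all probes 3 rose: Atf3, a transcription factor, by 5.22 ± 0.11, the neuropeptide gene Gal by 2.92 ± 0.14 and the receptor gene Gpr151 by 5.14 ± 0.26, with adjusted p of 0.0394, 0.0456 and 0.0482. These calls too were lost with any 1 mouse left out, and 6 to 8 of the 12 were then higher at an unadjusted p under 0.05. Of 12 genes of neurons in general, 1 was higher at that p, the synaptic gene Snap25 at 0.43 ± 0.13, 0 were lower, and the median was 0.13. Next by p were Stmn2, a regulator of microtubules, at 0.38 ± 0.14 and Uchl1 at 0.31 ± 0.13. Of 10 oligodendrocyte genes 1 was higher, the myelin gene Mobp at 0.35 ± 0.12, and 0 were lower at an unadjusted p under 0.05, with a median of 0.038, or -0.031 without SNL mouse 1. Next there were Olig2 at -0.44 ± 0.16 and Opalin at -0.34 ± 0.15.

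Desmin had the largest change of the filament genes, and it rested on 1 mouse. Its probe, printed as 10 spots on each array, gave -4.02 and -4.72 in the sham mice and -1.57 and -3.89 in the SNL mice. SNL mouse 1 stood far above the other 3, and SNL mouse 2 lay only just above sham mouse 1. The change was 1.64 ± 0.90, or 3.11-fold with an interval of 0.523-fold to 18.5-fold (adjusted p = 0.56). Without SNL mouse 1 it was 0.48 and without SNL mouse 2 it was 2.80.

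Spots of 1 array lay close together for desmin, while the arrays lay far apart. Spot signals on the linear scale ran from 3812 to 4163 in SNL mouse 1, 830 to 939 in SNL mouse 2, 723 to 888 in sham mouse 1 and 438 to 498 in sham mouse 2. The SD between the spots kept on an array was 0.044 to 0.10 on the log2 scale, against 0.50 between the sham mice and 1.64 between the SNL mice. In sham mouse 2 the scanner software marked 3 of the 10 spots as outliers, 1 of them at 12631, and these were left out. In sham mouse 1 it marked 2, and in SNL mouse 2 it marked 3 of the 10 spots of Nefm. Local background lay at 46.5 to 48 on all 4 arrays.

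**Figure D3:**
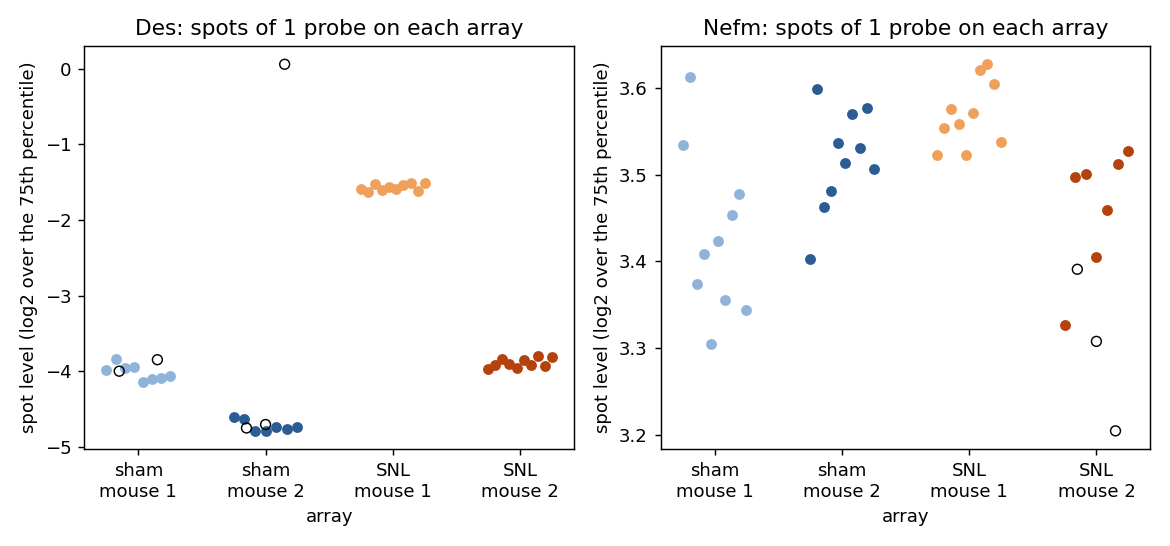
Level of every spot of the Des probe (left) and the Nefm probe (right) on each array (y axis, log2 over the 75th percentile), where open circles are spots left out as outliers. The Des spots of SNL mouse 1 lie together far above the other arrays, while the Nefm spots of all 4 arrays overlap.

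Skeletal muscle genes were highest in SNL mouse 1, as desmin was, and vessel wall genes were not. In SNL mouse 2 they parted from desmin: 10 of 12 muscle genes were lowest there, while Des lay above both sham mice. The actin gene Acta1 was at 0.98 and 0.93 in the sham pair and at 3.1 and 0.54 in the SNL pair. Ckm, the muscle creatine kinase, was at -5.18 and -4.11 in the sham pair and at 1.22 and -4.96 in the SNL pair. Of these 12 genes, 0 were higher and 0 lower at an unadjusted p under 0.05, and their median change was 1.15. Without SNL mouse 1 the median was -1.34 with 5 of 12 lower, and without SNL mouse 2 it was 3.65 with 12 of 12 higher, in each case at an unadjusted p under 0.05. The 3 with the smallest p were Actn3 at 1.86 ± 1.46, Ckm at 2.77 ± 2.31 and the titin gene Ttn at 1.66 ± 1.56.

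Of 12 genes of mural and smooth muscle cells, which also make desmin, 0 were highest in SNL mouse 1 and 6 were lowest there. They summed to 18.3 and 16.8 in the sham pair and 14.9 and 15.5 in the SNL pair, with a median change of -0.32. The smallest p were those of Rgs5, a pericyte gene, at -0.33 ± 0.098 (lower at an unadjusted p under 0.05), of Myh11 at -0.31 ± 0.12 and of Kcnj8 at -0.66 ± 0.27, and none passed over all probes. How much muscle RNA the Des value holds was not tested.

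**Figure D4:**
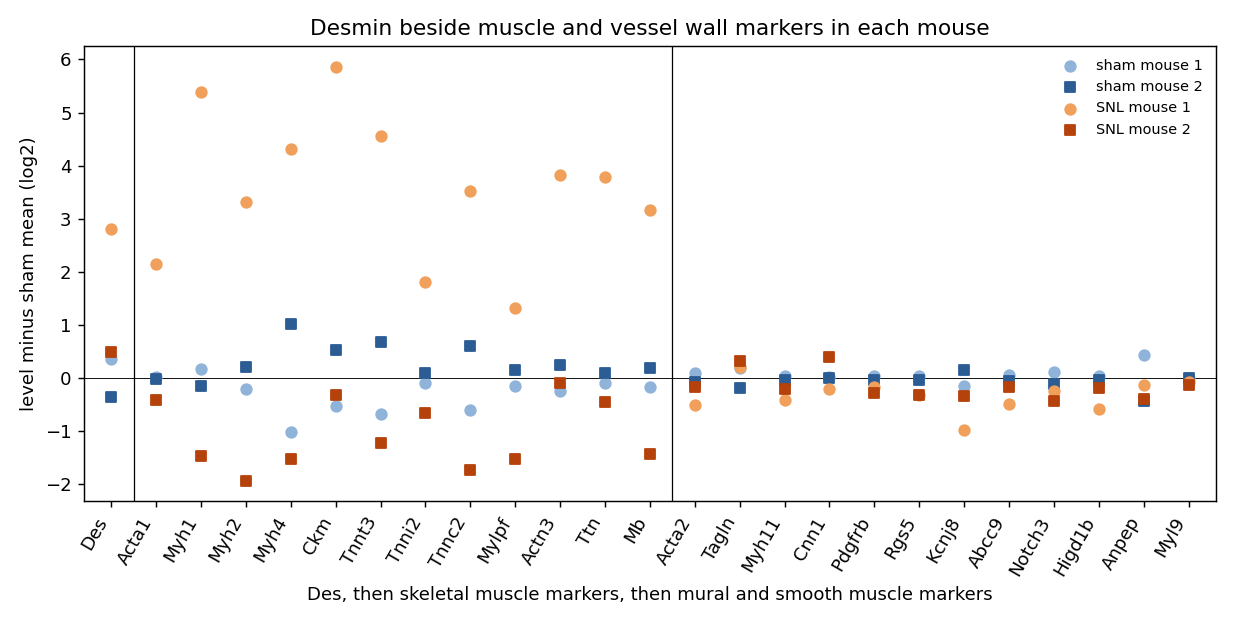
Level of Des, of 12 skeletal muscle genes and of 12 mural and smooth muscle genes in each mouse, minus the mean of the sham mice (y axis, log2). SNL mouse 1 (orange circles) is the highest mouse for Des and for all 12 muscle genes, and for none of the 12 mural genes.

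Genes that work on filaments had list medians near 0, with few members past an unadjusted p of 0.05. Of 12 linkers and partners, 1 was higher and 0 lower at an unadjusted p under 0.05, against 6.37% and 5.17% of genes. The list's median was 0.059, and it ran from -0.057 without SNL mouse 1 to 0.18 without SNL mouse 2. The higher one was Hspb1, a small heat shock protein that binds filaments and is also on the reactive astrocyte list, at 0.44 ± 0.12 (adjusted p = 0.339), and next by p were Pkp2 at 0.38 ± 0.14 and Dtna at 0.23 ± 0.10. Plec, which makes plectin, the linker of filaments to other structures, was at 0.16 ± 0.12, and Cryab, the crystallin chaperone of Gfap, at -0.14 ± 0.13, both named after their values were seen.

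Of 18 genes that modify or break down filaments, 17 were tested and Aurkb was too dim for the test. At an unadjusted p under 0.05, 1 was higher and 1 lower, against 6.37% and 5.17% of genes. The list's median was 0.018, or -0.022 without SNL mouse 1. The higher one was Casp6, a protease, at 0.47 ± 0.10 and the lower one Cdk5r2, an activator of the kinase Cdk5, at -0.66 ± 0.13 (adjusted p = 0.28 and 0.246). Next by p was Ogt, which adds a sugar to proteins, at 0.38 ± 0.22 by its brightest probe and -0.18 by its other tested probe. Of 6 lamins and other filament genes, 1 was lower and 0 higher, Bfsp2 at -0.86 ± 0.17 (adjusted p = 0.245), a lens filament gene, and next by p were Lmnb1 at -0.23 ± 0.12 and Lmnb2 at 0.35 ± 0.23. In these 3 lists 0 genes passed over all probes.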

How the data were processed

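Total RNA of each cord was labelled with Cy3 for Agilent arrays read in 1 colour, per the labels' protocols. Each deposited scanner file gives an intensity per spot on array design 028005. The file headers name Agilent Feature Extraction 10.7.3.1, while the submitters' processing notes name version 10.7.1.1. Dim spots carry a surrogate value, per the file headers' column names. A deposited table of log2 values for the series was used as an alternative. Its columns correlated with the values used here at 1 after rounding and lay 0.122 to 0.132 above them, and over which spots it was scaled stays unknown.

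Processed signals were taken to log2 and the 75th percentile over 59305 non-control spots of each array was subtracted. Outlier spots were dropped before spots of a probe were averaged. Probes well above background on at least 2 of 4 arrays were fitted in limma 3.58.1 under R 4.3.3 (lmFit and eBayes), with Benjamini-Hochberg adjustment over 44718 probes and a threshold of 0.05. Residual degrees of freedom were 2, with 1.7 added by the prior, and the fit was tested on simulated data. The number of arrays limits the precision. With 2 mice a group, the smallest p an exact two-sided permutation test allows is 0.333, and none was run.

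Filament probes were read by the gene name in the files. Other lists use each gene's brightest tested probe, matched by name, RefSeq accession or synonym. Their counts at an unadjusted p under 0.05 in limma stand against 6.37% of genes higher and 5.17% lower. All filament probes are named, and of each other list the 3 genes with the smallest p, besides those said to be named after their values were seen. Acta1 was also named after its values were seen. Members and lists were chosen with earlier results of these data known. Alternatives were normexp correction, quantile normalization, centring on medians, other filters, 1 probe or the mean of probes per gene, a variance trend, the deposited values, leaving out each mouse, and the replicate number as a block. All arrays lay on 1 slide, so no block for slide could be fitted.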

Additional observations from a re-analysis of the deposited data

How the results depend on the processing

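Of 18 filament probes, 0 passed in either direction under every alternative that was run (lowest adjusted p = 0.0897, for Synm probe 3 with a variance trend and robust estimation). The probes of Vim, Des, Synm probes 1, 3 and 4 and Ina probe 2 kept a value above 0 under all of them. Of 236 values under an alternative, 207 kept the sign of the probe they were set against and 29 did not. None of them passed the threshold, and the cause was not tested. Of the 236, 10 were means over the probes of a gene, set against its brightest probe. With normexp correction, Gfap probes 1 and 2 were at -0.16 and -0.15, Synm probes 2 and 5 at -0.066 and 0.14, Nes at 5.1e-05, Nefl at 0.029 and Nefh probe 1 at -0.10. With quantile normalization, Nefm was at -0.11, Nefh probes 1 and 2 at -0.066 and -0.064, Ina probe 1 at -0.05 and Prph at -0.055. Centring on medians gave -0.039 for Gfap probe 1, -0.057 for Nefm, -0.0092 and -0.028 for Nefh probes 1 and 2, -0.015 for Ina probe 1 and -0.021 for Prph, and moved the median of all probes from 0.015 to -0.084.

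With 1 mouse left out, changes ranged from -0.075 to 0.33 for Gfap probe 3, -0.47 to 0.41 for Nes, -0.15 to 0.047 for Synm probe 5, -0.18 to 0.044 for Nefl, -0.012 to 0.096 for Nefm, -0.046 to 0.19 for Nefh probe 2 and -0.055 to 0.21 for Prph. Over all probes, 63 were higher and 5 lower. These were 186 and 24 with normexp correction, 279 and 105 with median centring, 2095 and 169 with no filter on dim probes, and 514 and 140 with a variance trend. Quantile normalization gave 34 higher, probes well above background on all 4 arrays 9 lower, and 1 probe per gene 3 lower. Leaving out any mouse gave 0 and 0, with 1771 to 4012 probes higher and 1189 to 3874 lower at an unadjusted p under 0.05 in limma. With the replicate block 0 and 0 were called, with 2330 and 1914 at that unadjusted p. The labels share replicate numbers, and deviations of same-numbered mice correlated at -0.02 across probes. That value does not settle whether the numbers pair the mice. Sums of Schwann cell and of meningeal genes were higher in mouse 1 of each group. With the block the SE fell for Vim from 0.19 to 0.13 and for Des from 0.90 to 0.49. For Gfap probe 1 it rose from 0.10 to 0.13, and a pairing was not tested.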

Other observations

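A probe outside the rule is described in the files as a cDNA clone of medium neurofilament and named AK042598. Its level was -6.34 and -6.36 in the sham mice and -7.18 and -6.66 in the SNL mice. Both SNL mice were thus below both sham mice, as for 22.2% of all probes. It was not well above background in SNL mouse 1 and met the filter on dim probes only with the sham arrays, where it is higher. Its change of -0.57 ± 0.21 did not pass (adjusted p = 0.431). The Nefm probe was at 0.042 ± 0.11 in the same arrays.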
